A study of Mus musculus with 7 samples.

Results

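The MAPK feedback phosphatases and the Sprouty family switch off the signal that passes from growth factor receptors through Ras and the mitogen-activated protein kinases (MAPKs). The set was made of 10 genes, namely the phosphatases Dusp1, Dusp4, Dusp5, Dusp6 and Dusp10, the Sprouty genes Spry1, Spry2 and Spry4, and the Sprouty-related genes Spred1 and Spred2. Every non-control probe that carries one of these names was taken, which gave 11 of 39429 probes and 10 of 31829 gene names on the array. Of these, 9 probes for 8 genes passed the filter on dim probes, and Dusp5 and Spry4 did not.

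The study asked whether exosomes, the small vesicles that cells release, carry an effect of palmitate from one muscle culture to another. C2C12 is an established line of mouse myoblasts, muscle precursors that can fuse into multinucleate myotubes. Donor C2C12 cells were treated with palmitate at 0.5 mmol/l (EXO-Post Palm) or with BSA, its carrier (EXO-Post BSA), and per the study's methods exosome collection took place 9 h after removal of the fatty acid. Recipient C2C12 cells of both groups received exosomes, so no array measured cells without them. Per the study this exposure lasted 24 h in serum-free medium, and no other time was measured on the arrays. RNA came from 4 recipient cultures given EXO-Post BSA and 3 given EXO-Post Palm, labelled as biological replicates, and each was hybridised to a 1-colour Agilent mouse array. The labels give the cell type as myoblast, whereas the study describes the recipients as myotubes. All 12 myotube markers were well above background on all 7 arrays. So were 5 of the 7 myoblast and satellite cell markers, while Pax3 was on 3 arrays and Myf5 on none. Detection of genes of both lists does not settle which state the recipients were in. As the RNA is from whole cultures, fewer cells of a type and less RNA per cell cannot be told apart.

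MAPKs are active only while phosphorylated on a threonine and a tyrosine, and the dual-specificity phosphatases (DUSPs) remove both phosphates. ERK, the MAPK that answers most growth factors, induces several of these phosphatases together with the Sprouty and Spred proteins, which act upstream of it at the receptor, Ras and Raf. For this reason transcripts such as Dusp6 and Spry4 are often read as gauges of ERK activity, and in muscle the pathway takes part in the choice between division of myoblasts and their fusion.

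The sequences just upstream of the transcription start show which classical elements of induced genes these promoters contain. Sequences are RefSeq's on the GRCm38.p6 build for 8 of the 10 genes, and the promoters of Dusp4 and Spry4 were not analysed here. In the 250 bases before the start, Dusp1 and Dusp5 contained more than 1 kind of element, and both are shown 5' to 3' on the strand of the gene, ending at the base before the start. Dusp1 lies at chr17:26508473-26508722 on the minus strand and Dusp5 at chr19:53528895-53529144 on the plus strand. Capitals mark the cAMP response element TGACGTCA, its core TGACG on either strand, the E-box CACGTG and the SRF CArG box.
Dusp1: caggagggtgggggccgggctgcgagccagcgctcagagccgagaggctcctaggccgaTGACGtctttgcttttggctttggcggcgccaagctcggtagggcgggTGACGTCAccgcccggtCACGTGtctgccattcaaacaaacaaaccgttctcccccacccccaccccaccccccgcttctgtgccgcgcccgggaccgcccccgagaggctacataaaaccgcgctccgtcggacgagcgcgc
Dusp5: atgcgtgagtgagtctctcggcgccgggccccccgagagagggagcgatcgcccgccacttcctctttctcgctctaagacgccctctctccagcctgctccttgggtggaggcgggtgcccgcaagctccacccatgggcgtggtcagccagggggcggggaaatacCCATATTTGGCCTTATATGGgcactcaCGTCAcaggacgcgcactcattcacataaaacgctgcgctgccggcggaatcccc
Dusp1 contained the full response element 143 bases before its start, within which the core TGACG is also read on both strands, a separate core at 191 bases and an E-box at 126 bases. Dusp5 contained 2 CArG boxes, at 82 and 72 bases, and the core TGACG at 55 bases. Spred2 contained only the core, at 51 bases. Dusp6, Dusp10, Spry1, Spry2 and Spred1 had no match to these motifs, nor did any of the 8 to the AP-1 motif TGANTCA, the ETS motif CCGGAA or TATAAA. Both strands were searched, and among 32851 promoter windows of this length the response element occurred in 1.546%, the core in 17.77%, the E-box in 6.021%, the CArG box in 1.467%, the AP-1 motif in 6.749%, the ETS motif in 12.03% and TATAAA in 12.37%. These matches describe letters in the windows and no binding was measured.

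No member passed the test. With limma, 0 of the 8 tested member genes had an adjusted p under 0.05 over all 21589 tested probes, of which 0.533% passed. Of all tested genes, each by its brightest probe, 0.561% passed (0.486% higher and 0.0744% lower with EXO-Post Palm). At an unadjusted p under 0.05 the count was 1 of 8 members, Dusp4, beside 10.2% of all tested genes. The differences of the 8 genes, EXO-Post Palm minus EXO-Post BSA, ran from -0.50 to 0.56 on the log2 scale with a median of 0.24, and 5 were above 0. Over all 17477 tested genes the median was -0.03 and 8131 were above 0. Throughout, a level is a log2 signal relative to the 75th percentile of its array, so a probe at that percentile has the level 0, and levels of different probes were not compared.

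**Figure D1:**
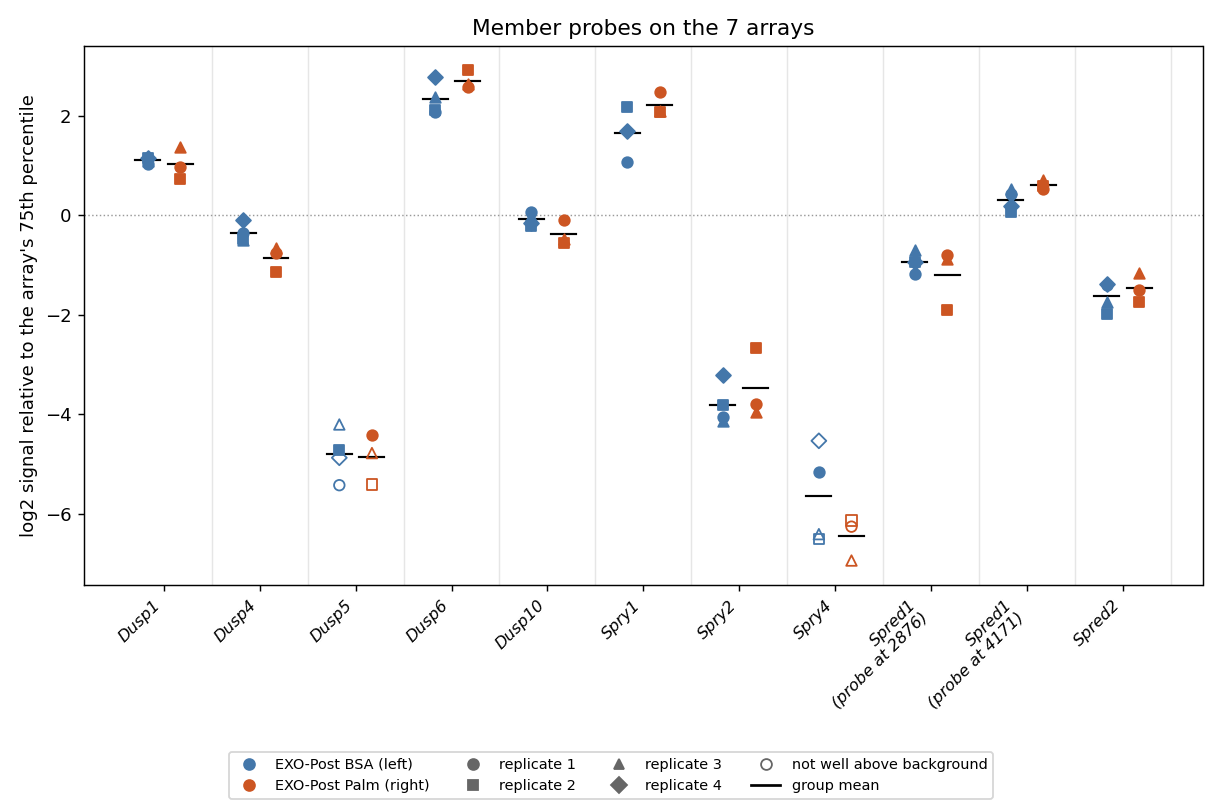
Levels of the 11 member probes on each array (vertical axis, log2 signal relative to the 75th percentile of the array), with EXO-Post BSA in blue on the left and EXO-Post Palm in orange on the right of each column, 1 marker shape per replicate number, open markers where the spot was not well above background and a bar at the group mean. The groups do not overlap for Dusp4 and for the Spred1 probe that starts at transcript base 4171, and the Dusp5 and Spry4 probes are mostly open markers.

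Among the phosphatases, Dusp4 gave the smallest p. DUSP4 is an inducible nuclear phosphatase that acts on ERK, JNK and p38. Its probe (A_51_P518051, chr8:35882045-35882104 on mm9, plus strand) had levels of -0.37, -0.48, -0.51 and -0.09 with EXO-Post BSA, in the order of the replicates, as for all genes here. With EXO-Post Palm they were -0.76, -1.15 and -0.67. Each EXO-Post Palm array was below each EXO-Post BSA array, and the mean level was -0.36 ± 0.19 (SD, n = 4) in the controls against -0.86 ± 0.26 (SD, n = 3). The difference was -0.50 (SE 0.217, 95% interval -0.99 to -0.0040), a ratio of 0.708 with an interval of 0.503 to 0.997. An exact 2-sided permutation test, which has 35 splits of 7 arrays, gave the smallest p it can (p = 0.0286), and 6.23% of all tested genes were lower without overlap in the same way. With limma the adjusted p was 0.495, rank 2117 of the tested probes, so the difference did not pass. Within slide 1, which held EXO-Post BSA replicates 1 and 2 and EXO-Post Palm replicate 1, the difference was -0.34, and within slide 3, which held EXO-Post BSA replicate 4 and EXO-Post Palm replicate 3, it was -0.58.

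Dusp6 encodes a cytoplasmic phosphatase that is selective for ERK. Its probe (A_51_P502614, chr10:98729985-98730044, plus strand) had levels of 2.07, 2.12, 2.37 and 2.77 with EXO-Post BSA and 2.57, 2.91 and 2.63 with EXO-Post Palm. The groups overlapped through EXO-Post BSA replicate 4, the second highest of the 7 arrays. The mean was 2.33 ± 0.32 (SD, n = 4) against 2.70 ± 0.18 (SD, n = 3), a difference of 0.37 (SE 0.237, 95% interval -0.17 to 0.91) that did not pass (limma adjusted p = 0.647, exact permutation p = 0.171). It was 0.48 within slide 1 and -0.14 within slide 3, so the sign was not the same on both slides that held both groups.

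Dusp10 encodes a phosphatase that prefers JNK and p38 over ERK. Its probe (A_51_P104418, chr1:185898608-185898667, plus strand) had levels of 0.06, -0.22, -0.01 and -0.15 with EXO-Post BSA and -0.10, -0.56 and -0.48 with EXO-Post Palm. EXO-Post Palm replicates 2 and 3 lay below every EXO-Post BSA array and replicate 1 lay among them. The difference was -0.30 (SE 0.205, 95% interval -0.77 to 0.16) and did not pass (limma adjusted p = 0.666, exact permutation p = 0.143), with values of -0.02 within slide 1 and -0.33 within slide 3.

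Dusp1 is an immediate early gene whose nuclear phosphatase acts on p38 and JNK as well as ERK. Its probe (A_51_P430900, minus strand, of which the array annotation places 11 of 60 bases at chr17:26642526-26642536) had levels of 1.02, 1.14, 1.09 and 1.15 with EXO-Post BSA. The EXO-Post Palm arrays had 0.96, 0.74 and 1.37 and so lay on either side of the narrow EXO-Post BSA range. The SD was 0.06 (n = 4) with EXO-Post BSA and 0.32 (n = 3) with EXO-Post Palm. The difference was -0.08 (SE 0.213, 95% interval -0.57 to 0.40; limma adjusted p = 0.928, exact permutation p = 0.629), and its sign turned with other background corrections, in the authors' processed values, with slide as a block and without EXO-Post Palm replicate 2.

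Dusp5 encodes a nuclear phosphatase that is selective for ERK. Its probe (A_55_P2063237, chr19:53615682-53615741, plus strand) was well above background only on EXO-Post BSA replicate 2 and EXO-Post Palm replicate 1. The levels were -5.43, -4.73, -4.21 and -4.88 with EXO-Post BSA and -4.42, -5.42 and -4.79 with EXO-Post Palm, so that the EXO-Post Palm arrays lay within the EXO-Post BSA range. As the gene was measurable on 1 array of each group, it was not tested and no fold is given.

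Spry1 had the largest difference above 0 among the members. Sprouty proteins are inhibitors of receptor tyrosine kinase signalling, and SPRY1 is known in muscle for holding satellite cells in quiescence. The Spry1 probe (A_55_P1952235, chr3:37543403-37543462, plus strand) had levels of 1.07, 2.18 and 1.68 on EXO-Post BSA replicates 1, 2 and 4 and 2.47, 2.07 and 2.09 on the EXO-Post Palm arrays. The spot of EXO-Post BSA replicate 3 was marked by the scanner software as uneven or as an outlier and was left out, with a level of 1.93 if kept. EXO-Post BSA replicate 1 was the lowest array, and EXO-Post BSA replicate 2 lay among the EXO-Post Palm arrays. The mean was 1.65 ± 0.56 (SD, n = 3) against 2.21 ± 0.22 (SD, n = 3), a difference of 0.56 (SE 0.319, 95% interval -0.18 to 1.31) or a ratio of 1.48 (0.884 to 2.47), which did not pass (limma adjusted p = 0.610). It was 0.28 without EXO-Post BSA replicate 1 and 0.83 without EXO-Post BSA replicate 2, and within slides 1 and 3 it was 0.84 and 0.41. For 6 arrays the exact permutation test has 20 splits and cannot go below 0.1, and it gave p = 0.300.

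Spry2 is a further growth factor antagonist of the same family. Its probe (A_55_P1952251, chr14:106291845-106291904, minus strand) was dim but well above background on all 7 arrays. The levels were -4.06, -3.82, -4.14 and -3.21 with EXO-Post BSA and -3.81, -2.67 and -3.96 with EXO-Post Palm. Only EXO-Post Palm replicate 2 lay above the EXO-Post BSA range. The difference was 0.33 (SE 0.367, 95% interval -0.51 to 1.16, limma adjusted p = 0.802, exact permutation p = 0.486). It was -0.08 without that array, -0.76 within slide 3 and 0.02 after background subtraction to a floor.

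Spry4, an inducible Sprouty gene, was well above background on EXO-Post BSA replicate 1 alone. Its probe (A_52_P204311, chr18:38745923-38745982, minus strand) had levels of -5.16, -6.51, -6.41 and -4.54 with EXO-Post BSA and -6.26, -6.14 and -6.95 with EXO-Post Palm. It was not tested, and with EXO-Post Palm no array gave more than a bound.

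Spred proteins hold neurofibromin, a negative regulator of Ras, at the membrane. Spred1 was represented by 2 probes, both on the plus strand. The brighter (A_55_P2079430, chr2:117005906-117005965, from transcript base 4171) had levels of 0.43, 0.06, 0.52 and 0.18 with EXO-Post BSA and 0.52, 0.59 and 0.70 with EXO-Post Palm. Here the groups did not overlap, as for 5.22% of all tested genes in this direction, but the lowest EXO-Post Palm array and the highest EXO-Post BSA array were equal at 2 decimals. The mean was 0.30 ± 0.21 (SD, n = 4) against 0.61 ± 0.09 (SD, n = 3), a difference of 0.31 (SE 0.203, 95% interval -0.15 to 0.77) that did not pass (limma adjusted p = 0.655, exact permutation p = 0.0571). It was 0.28 within slide 1 and 0.53 within slide 3.

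The other Spred1 probe (A_55_P2079425, chr2:117004952-117005011, from transcript base 2876) had levels of -1.19, -0.95, -0.69 and -0.94 with EXO-Post BSA and -0.81, -1.90 and -0.89 with EXO-Post Palm. EXO-Post Palm replicate 2 was the lowest array here and the other two EXO-Post Palm arrays lay within the EXO-Post BSA range. The difference was -0.26 (SE 0.298, 95% interval -0.94 to 0.42; limma adjusted p = 0.813), the opposite sign to the brighter probe. It was 0.09 without EXO-Post Palm replicate 2, and with the mean of both probes on all arrays the difference of the gene was 0.03.

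Spred2 was the member with the smallest difference above 0. Its probe (A_55_P2025840, chr11:19922416-19922475, plus strand) had levels of -1.41, -1.99, -1.75 and -1.39 with EXO-Post BSA and -1.51, -1.75 and -1.16 with EXO-Post Palm. The groups overlapped, and the difference was 0.16 (SE 0.244, 95% interval -0.39 to 0.72; limma adjusted p = 0.861, exact permutation p = 0.486). It was 0.19 within slide 1 and 0.23 within slide 3.

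**Figure D2:**
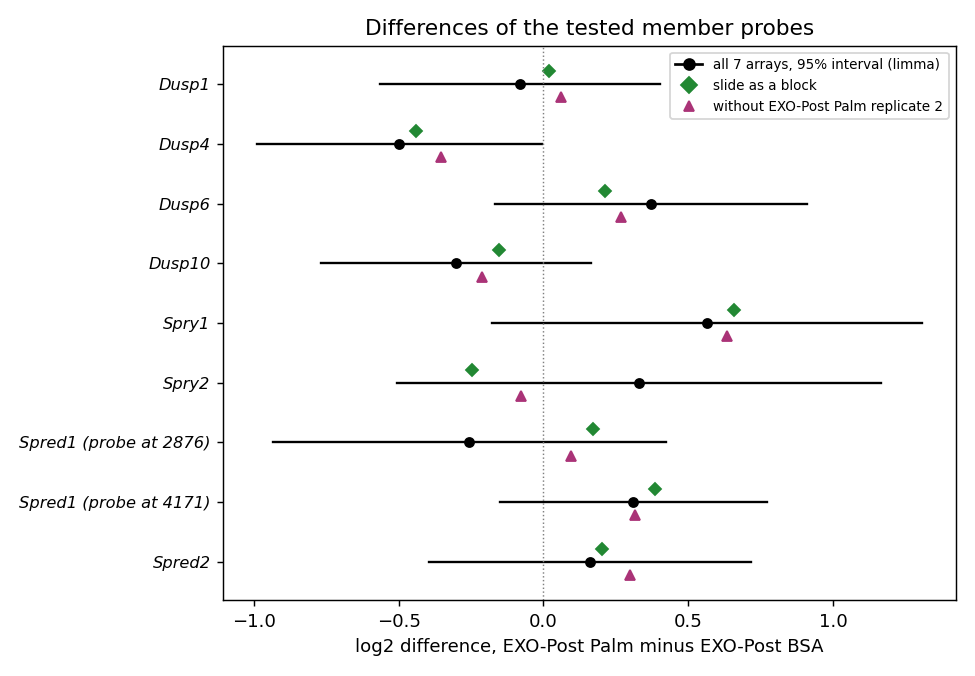
Differences of the 9 tested member probes (horizontal axis, log2, EXO-Post Palm minus EXO-Post BSA). Black circles and lines are the value over all 7 arrays with its 95% interval from limma, green diamonds the value with slide as a block and purple triangles the value without EXO-Post Palm replicate 2. Dusp4 is the probe whose interval lies below 0, and Dusp1, Spry2 and the Spred1 probe at transcript base 2876 cross 0 in both other settings. These settings are not independent. With slide as a block, an array alone on its slide does not enter the difference, so both leave out EXO-Post Palm replicate 2.

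Among the phosphatases 1 of 4 tested genes, Dusp6, was above 0 and the median difference was -0.19. The 4 tested Sprouty and Spred genes, each by its brightest probe, had differences between 0.16 and 0.56. This range depended on probe and setting. The other Spred1 probe was at -0.26 and the mean of both at 0.03. Spred2 was at 0.0047 without EXO-Post Palm replicate 3, and Spry2 at 0.018 after background subtraction to a floor. No gene of either group passed the test, and the difference between the phosphatases and the Sprouty and Spred genes was not tested. With slide as a block Dusp1 was at 0.02 and Spry2 at -0.25. Groups without overlap were seen in 2 of 8 member genes, Dusp4 and Spred1, beside 11.4% of all tested genes. EXO-Post Palm replicate 2 was alone on its slide, as was EXO-Post BSA replicate 3. The former was the lowest array for 4 and the highest for 2 of the 9 tested member probes. It was lowest or highest for 36.3% of all tested probes, against 20.9 to 32.1% for the other arrays. Its part in the members' values was not tested beyond the values given without it.

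**Figure D3:**
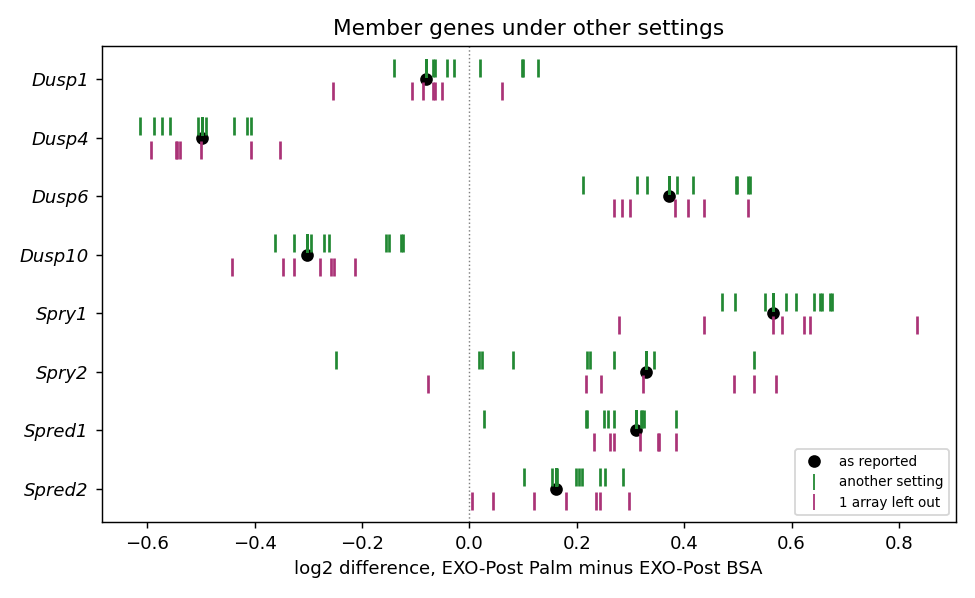
Differences of the 8 tested member genes (horizontal axis, log2, EXO-Post Palm minus EXO-Post BSA) as reported (black circles), under other normalisations, background corrections, filters and models (green bars) and with 1 array left out (purple bars). Dusp4 stays between -0.61 and -0.35 and Spry1 between 0.28 and 0.83, while Dusp1 and Spry2 fall on both sides of 0.

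Related genes that are no members were likewise not called, where 0.561% of all tested genes passed. Of 9 other DUSP, Sprouty and Spred genes 7 were tested, 0 passed and their median difference was 0.06. Dusp9, a cytoplasmic phosphatase selective for ERK, had the largest value (0.80, limma adjusted p = 0.318), with EXO-Post Palm levels of -1.88, -2.41 and -1.71, all above those with EXO-Post BSA, the highest of which was -2.42. Dusp8, which acts on JNK and p38, had the lowest (-0.62, adjusted p = 0.402). Spry3 and Spred3 were too dim to test.

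Genes of the kinase cascades that the members limit, adaptors and regulators included, were not called either. As only 0.561% of all tested genes passed, a list of this size without a call says little about the pathway. In the ERK cascade 25 of 27 genes were tested, 0 passed and the median difference was -0.07, with Gab1 at 0.27 and Rasa1, a Ras GTPase-activating protein, at -0.97 (limma adjusted p = 0.556). In the JNK and p38 cascades 21 of 25 genes were tested, 0 passed and the median was -0.10, from Gadd45g, an activator of these cascades, at -0.89 (adjusted p = 0.162) to Map2k6 at 0.61. Among receptors 13 of 15 were tested, 0 passed and the median was -0.09, with Igf1r at 0.44 and Pdgfrb at -1.16 (adjusted p = 0.372).

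Of the ligands that activate ERK, 2 of 17 tested genes passed, both higher with EXO-Post Palm, and 15 did not, with a median of -0.16. Fgf7, a ligand for epithelial FGF receptors, rose by 2.46 (limma adjusted p = 0.0236) from levels of -1.62 to -0.60 with EXO-Post BSA to 0.95 to 2.05 with EXO-Post Palm. Fgf10 rose by 1.81 (adjusted p = 0.0424), but its probe was well above background on 2 of 4 EXO-Post BSA arrays and the difference was 0.61 (adjusted p = 0.256) after background subtraction to a floor. Fgf5 had the lowest value of the list, -0.96 (adjusted p = 0.446). With slide as a block the adjusted p was 0.0556 for Fgf7 and 0.0575 for Fgf10. Fgf7 kept its call in 3 of the 7 fits without 1 array (EXO-Post BSA replicate 1 or 2 or EXO-Post Palm replicate 2 left out, adjusted p from 0.0234 to 0.0848 over the 7), and Fgf10 in 1 of 7 (EXO-Post Palm replicate 2 left out, 0.0264 to 0.116). Over these 7 fits the differences ran from 2.11 to 2.66 for Fgf7 and from 1.49 to 2.04 for Fgf10.

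Other genes that ERK is known to induce were followed in a list of 20, of which 19 were tested. Here 1 rose and 18 did not pass, with a median of 0.25. Ccnd1, cyclin D1 of the entry into the cell cycle, rose by 1.77 (limma adjusted p = 0.0421), from levels of -0.49, -0.45, -0.21 and 0.07 with EXO-Post BSA to 0.98, 1.53 and 2.01 with EXO-Post Palm. Each of the 7 fits without 1 array ended this call, with adjusted p from 0.0528 to 0.157, and with slide as a block the adjusted p was 0.0598. Rgs2 was at 2.22 (adjusted p = 0.121), and Egr1, an immediate early gene, was at -0.67 (adjusted p = 0.434). At an unadjusted p under 0.05, 8 of the 19 genes were higher and 1 was lower, beside 822 higher and 955 lower of all 17477 tested genes. The same counts were 4 higher and 5 lower among the ligands, 0 and 1 among the receptors, 0 and 3 in the ERK cascade and 0 and 2 in the JNK and p38 cascades.

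**Figure D4:**
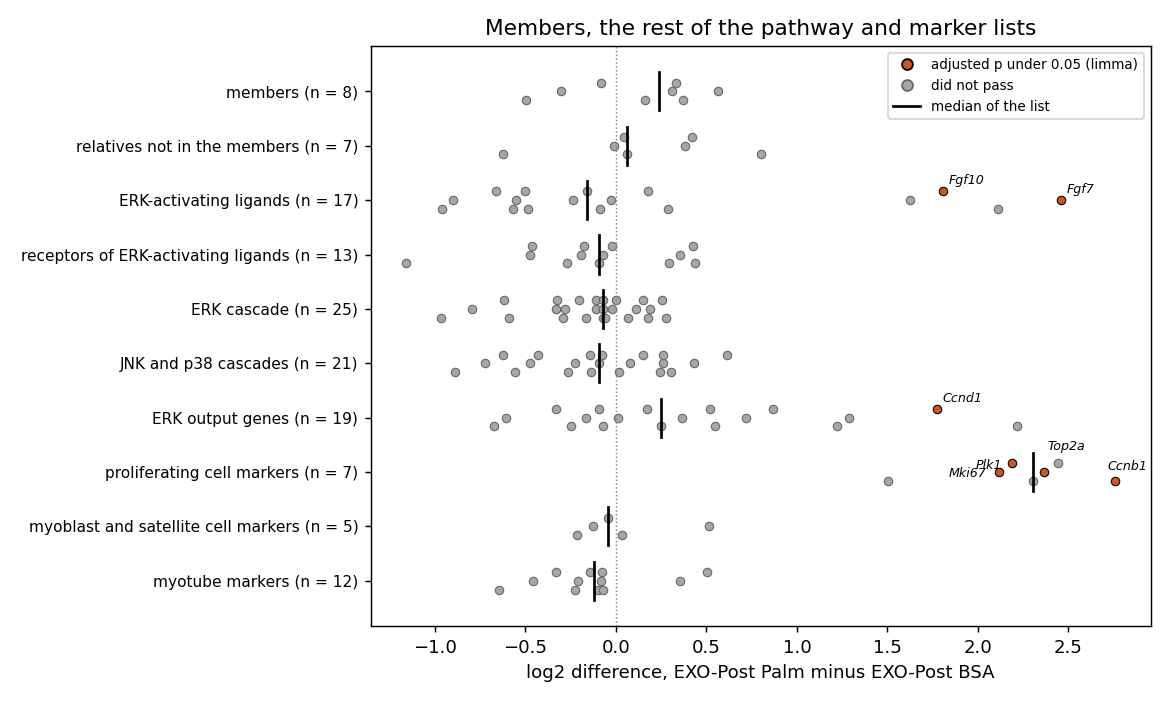
Differences of single tested genes in each list (horizontal axis, log2, EXO-Post Palm minus EXO-Post BSA), 1 row of points per list, with the list median as a vertical bar and genes with a limma adjusted p under 0.05 in orange with their names. The members lie between -0.50 and 0.56, and all 7 tested proliferating cell markers lie to the right of every member.

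Markers of dividing cells differed between the groups and the members' values were measured in the same arrays. Of 8 such markers 7 were tested and 4 rose, namely Ccnb1 by 2.76, Top2a by 2.36, Plk1 by 2.19 and Mki67 by 2.12 (limma adjusted p from 0.0108 to 0.0436), with a list median of 2.31 and the smallest value for Ccna2. Aurkb was not well above background on any array. The calls held in 6 of the 7 fits without 1 array for Ccnb1 (lost without EXO-Post Palm replicate 1), in 5 for Top2a (lost without EXO-Post Palm replicate 1 or 3), in 2 for Plk1 and in 1 for Mki67. Over these fits the differences ran from 1.83 to 2.37 for Plk1 and from 1.81 to 2.47 for Mki67. All 4 calls held with slide as a block (limma adjusted p from 0.0327 to 0.0405), where Birc5 passed too (0.0339). Relative to the EXO-Post BSA mean, the median over the 7 tested markers was 2.32, 1.65 and 2.91 on EXO-Post Palm replicates 1 to 3, and the median over the 8 member genes was 0.06, 0.09 and 0.28 on the same arrays. The part of cell division in the members' values was not tested.

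Other marker lists held no call, where 0.561% of all tested genes passed. The 12 myotube markers had a median difference of -0.12, from Myh8 at -0.65 to Des at 0.50, and the 5 tested of 7 myoblast and satellite cell markers a median of -0.04, from Pax7 at -0.21 to Vcam1 at 0.51. The 6 fibroblast markers had a median of 0.32, from Col1a1 at -1.64 to Lum at 1.45. Of 6 macrophage and leukocyte markers 3 were tested, with a median of 0.45, from Itgam at -1.63 to Emr1 at 0.58, and Lyz2 was not well above background on any array. Of 5 adipocyte markers only Cidec was tested, at -0.35, and none was well above background on all 7 arrays.

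For the member with the largest and the member with the lowest difference, the genes with the most similar profile over the arrays were looked up as a description. Over the 6 arrays that measured Spry1, the highest Pearson correlations of the log2 levels among 17245 genes were with E430018J23Rik (r = 0.992), Dcaf5 (r = 0.986) and Inpp1 (r = 0.980). For Dusp4 over 7 arrays and 17081 genes they were with Zc3h15 (r = 0.980), Mical1 (r = 0.977) and Rhd (r = 0.975). With so few arrays and so many genes, correlations of this size are the top of a long list, and the arrays also share slides and depth of signal.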

How the data were processed

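The members, the gene lists and the tests were chosen with earlier results of these data known. For each of 7 arrays the authors deposited the scanner software's output, holding an intensity per spot that is background-subtracted and not normalised between arrays. A deposited table of the authors' log2 values has the same distribution and a median of 6.65 on every array; its rows were joined by order (rank correlation of at least 0.9936 with the same array), and its normalisation and centring are not given in the sources used here. The labels name Agilent Feature Extraction 9.1, while the file headers give 11.5.1.1 for EXO-Post BSA replicate 3 and 10.7.3.1 for the others. The study's methods name Agi4x44PreProcess and limma.

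Levels were obtained by taking the processed signal to log2 and subtracting each array's 75th percentile over 43020 non-control spots, which lay between 549.4 and 1621. Control spots and those marked uneven or as outliers (0.482%) were left out, and none was saturated. A probe entered the test when the software called it well above background in no fewer than 75% of either group's arrays (21589 of 39429). The comparison used limma 3.58.1 under R 4.3.3 (condition only, 2-sided, Benjamini-Hochberg over all tested probes, threshold 0.05). Single members had an exact permutation test over arrays. A gene is given by its brightest tested probe, and every probe of a member is given. From each other list the genes past the threshold and those with the largest rise and fall are named, and for Spry1 and Dusp4 the 3 genes with the highest correlation.

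On each array 48.5 to 70.3% of probes passed that background call, and the number of arrays limits the precision. Pairs of EXO-Post BSA arrays correlated at 0.962 to 0.984, pairs of EXO-Post Palm arrays at 0.948 to 0.970 and mixed pairs at 0.946 to 0.985. Beyond the label of biological replicate nothing says that cultures were set up separately, so p-values measure the spread between these arrays. Probe positions were taken from the array annotation (mm9). Alternatives covered normalisation, background correction, the authors' values, the probe filter, slide, replicate number, array weights, the variance model, the methods' t-test, the choice of probe, the marked spots (these kept, and the other Spred1 probe, were added after seeing the data) and each array left out. Figures were drawn with matplotlib 3.10.9 in Python 3.11.15.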

Additional observations from a re-analysis of the deposited data

Results flagged for a closer look

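Of 36 sets of 4 EXO-Post BSA levels examined, for members and named genes, 1 held a level far from the others. Myh8, a myosin heavy chain of developing muscle, had a level of 7.61 on EXO-Post BSA replicate 1, while the other 3 arrays lay between 7.21 and 7.25. Chance gives about 1 in 20 such sets. No member gene examined was flagged. Spry1, with 3 EXO-Post BSA levels, and the untested Dusp5 and Spry4 were not among the sets examined.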

How the results depend on the processing

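Of 184 values of the 8 member genes under 23 other settings, 176 kept their direction and their side of the threshold. Settings that changed only the probe filter, the variance model or the test could not change the difference itself. Without the probe filter, in the adjusted t-test and with a replicate block no probe at all was called. The sign of Dusp1 turned with normexp (0.10), subtraction to a floor (0.10), the authors' values (0.13), slide as a block (0.021) and without EXO-Post Palm replicate 2 (0.061). Spry2 turned with slide as a block (-0.25) and without EXO-Post Palm replicate 2 (-0.077), and the other Spred1 probe likewise (0.17 and 0.094). With slide as a block, an array alone on its slide does not enter the difference, so both settings leave out that array. Spry2 kept its sign but came near 0 with normexp (0.023), subtraction to a floor (0.018) and the authors' values (0.081). Dusp4 (-0.50) passed only in the methods' t-test without adjustment, where the count of members was 1, and the lowest of its adjusted p elsewhere was 0.361 (limma). Within slide 1 the difference of Dusp10 was -0.025, and within slide 3 that of Dusp1 was 0.21, Dusp6 -0.14, Spry2 -0.76 and Spred1 0.53. The causes were not tested.

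With 1 array left out the differences ran from -0.25 to 0.061 for Dusp1, -0.59 to -0.35 for Dusp4, 0.27 to 0.52 for Dusp6, -0.44 to -0.21 for Dusp10, 0.28 to 0.83 for Spry1, -0.077 to 0.57 for Spry2, 0.23 to 0.38 for Spred1, 0.0047 to 0.30 for Spred2 and -0.45 to 0.094 for the other Spred1 probe, with 0 members called each time.

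The count of all probes called was 115, and it was 0 without the probe filter, 181 with slide as a random block (correlation 0.233), 173 with a trended and robust model, 2108 and 0 in the methods' t-test without and with adjustment, and 4 to 228 with 1 array left out (4 without EXO-Post Palm replicate 3, 7 without replicate 1 and 228 without replicate 2). A replicate block gave 0 calls, a difference of -0.41 for Dusp4 and 0.64 for Spry1, and medians of -0.24 for receptors and -0.12 for the ERK cascade. Same-numbered arrays correlated at 0.12, -0.15 and -0.15 in their deviations from the group means, and those numbered 1 were on the same slide. With so few arrays these values cannot tell whether same-numbered cultures were set up together.

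Medians also moved for the ERK cascade with the median of each array (-0.17), for the related genes with normexp (0.24), the floor (0.23), the authors' values (0.26) and slide as a block (0.22), for ligands with slide as a block (-0.48) and for macrophage markers with probes above background on all arrays (-0.59). With 1 array left out they ran from 0.022 to 0.17 for related genes, -0.24 to -0.029 for receptors, -0.44 to 0.024 for ligands, -0.16 to -0.068 for the ERK cascade, 0.16 to 0.41 for ERK-induced genes and 1.89 to 2.63 for proliferating cell markers. Scan date was not run, as scan time coincides with slide. Normexp used median signals, since 1 file has no mean signal. With a signal this dim, Dusp5 and Spry4 could not be compared.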
